A study of Mus musculus with 1307 samples.

Results

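The genes described here are 10 isoforms of glucose transport and glycolysis, namely Slc2a1, Slc2a4, Hk1, Hk2, Gpi1, Pfkm, Pfkl, Ldha, Ldhb and Pkm, read across the cell types of the mouse heart. They were taken by symbol from the deposited table of 46517 genes, and all 10 were found once each. The study profiled single cells of dissociated hearts by Smart-Seq2, which reads whole transcripts and carries no molecular tags, in 1307 cells of 8 mice. Double-reporter mice (ACTA2GFP:CSPG4dsRED), which carry a green reporter named for Acta2, the smooth muscle actin gene, and a red reporter named for Cspg4, a proteoglycan gene of mural cells, gave 368, 245 and 336 cells from mice 1, 2 and 3. C57BL/6 mouse 1, which carries no reporter, gave 347 cells, and the other 4 mice gave 11 cells in all and entered no comparison. The labels name no treatment and give an age of 8 to 30 weeks for all animals. They call double-reporter mouse 3 female, although the design text speaks of males. The 4 mice with most cells each filled 1 plate of their own, so mouse and plate cannot be told apart, and the sort gate is not given in the sources used here.

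Glucose enters a cell through carriers of the Slc2a family. Slc2a1 (GLUT1) is the widespread carrier that sits at the cell surface, whereas Slc2a4 (GLUT4) is the carrier of muscle and fat that insulin brings from vesicles to the surface. Hexokinase traps the sugar as glucose 6-phosphate, phosphoglucose isomerase turns it into fructose 6-phosphate, phosphofructokinase commits it to glycolysis, and pyruvate kinase makes the pyruvate that lactate dehydrogenase exchanges with lactate. Phosphofructokinase and lactate dehydrogenase are tetramers, with Pfkm as the muscle and Pfkl as the liver subunit of the first, and Ldhb as the heart and Ldha as the skeletal muscle subunit of the second.

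Cells were put into classes by 8 marker genes per class, none of which was among the 10 genes. A marker counted as present at 100 CPM (counts per 1000000) or more, and a cell joined the class with most markers present if at least 3 were and at least 2 more than of any other class. Smooth muscle held 115, 75 and 20 cells of double-reporter mice 1, 2 and 3, pericytes (the mural cells of capillaries) 48, 15 and 9, fibroblasts 82, 114 and 251, and Schwann cells (the glia of peripheral nerves) 34, 12 and 17. Endothelium came almost only from C57BL/6 mouse 1, with 263 cells, of which 60 were endocardial and the rest vascular, so that its values have no replicate and differ from the other classes in strain, mouse and plate as well. Of all cells, 183 stayed unassigned, and 123 assigned cells led by exactly 2 markers. All 8 markers of its own class stood at 10 CPM or more in each class sum. Depth ran from 50476 to 811982 counts per cell (median 274702). Levels are CPM of the counts summed per mouse and class, given for sums of at least 10 cells, which leaves pericytes with 2 mice. Smooth muscle sums also held 326 to 668 CPM of the 8 cardiomyocyte markers together, most of it Tnnt2, against 193 and 355 CPM in pericytes, 111 to 150 CPM in fibroblasts, 176 to 322 CPM in Schwann cells and 604 CPM in endothelium. All 8 of these markers were above 0 in every one of these sums. Fibroblast markers summed to 2105 to 3052 CPM in smooth muscle, 1766 and 2290 CPM in pericytes and 2385 to 4513 CPM in Schwann cells, against 14430 to 21420 CPM in fibroblasts themselves. In Schwann cells of mouse 1 this was mostly collagen, with Col3a1, Col1a1 and Col1a2 at 1655, 1238 and 1124 CPM. Dcn, another fibroblast marker, stood there at 35.7 CPM, against 520 CPM in smooth muscle and 4654 CPM in fibroblasts of mouse 1. Whether signal of another class's markers came from other cells was not tested. Nor was its part in the differences between classes, apart from leaving out cells of high cardiomyocyte signal.

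The 4 classes of the double-reporter mice were compared in 6 contrasts of one edgeR quasi-likelihood fit with the mouse as a block, in which all 10 genes passed the filter on low counts. Mural cells were set apart by Slc2a4, which was higher in smooth muscle and in pericytes than in fibroblasts or Schwann cells. Smooth muscle against fibroblasts gave 2 of the 10 genes past an adjusted p of 0.05, Slc2a4 and Gpi1, where 2.29% of all 17326 genes tested passed and 1.11% did so as higher in smooth muscle. Smooth muscle against Schwann cells gave 5 of 10, Slc2a4, Hk2, Gpi1, Pfkl and Pkm, where 7.58% of all genes passed and 4.78% as higher in smooth muscle. Pericytes against fibroblasts gave 1, Slc2a4, where 2.12% of all genes passed and 0.762% as higher in pericytes, and pericytes against Schwann cells gave Slc2a4 and Gpi1, where 4.82% of all genes passed and 2.74% as higher in pericytes. Fibroblasts against Schwann cells gave Slc2a4 alone, where 5.51% of all genes passed and 4.01% as higher in fibroblasts. Every one of these calls was higher in the class named first. Smooth muscle against pericytes gave 0 of 10 with edgeR, where 0.877% of all genes passed and 0.629% as higher in smooth muscle. In that contrast 2 of the 10, Pfkm and Pkm, had an unadjusted p under 0.05 with edgeR, and DESeq2 called 1, Pfkm. The shares of all genes passing these 2 cuts are not given here, so these counts are not read as results about the 10 genes. The median log2 change of the 10 genes was 1.34 in smooth muscle against fibroblasts and 2.17 against Schwann cells, beside medians of -0.16 and 0.44 over all genes. It was 0.37 in pericytes against fibroblasts and 1.02 against Schwann cells, beside -0.53 and 0.05. In smooth muscle against pericytes it was 0.38 beside 0.34, and in fibroblasts against Schwann cells it was 0.41 beside 0.57. These contrasts share samples, so the calls of one are not independent of those of another. Where sums of 2 or 3 mice are said below to lie apart, this describes those sums only. The share of all genes that do so is not given here.

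**Figure D1:**
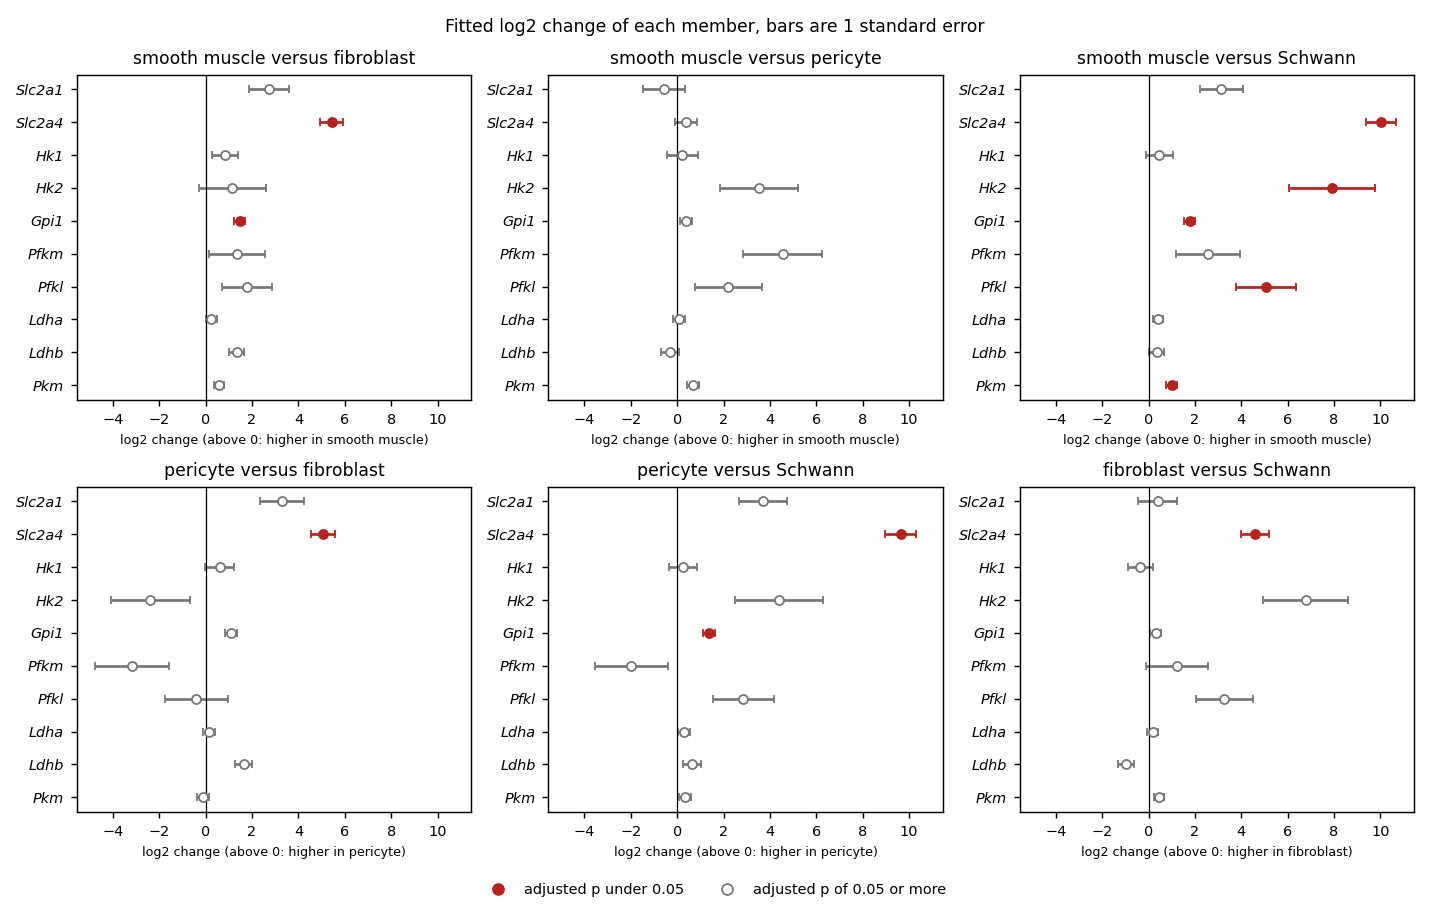
Fitted log2 change (x axis) of the 10 genes in the 6 contrasts between classes of the double-reporter mice, with bars of 1 standard error and filled points for an adjusted p under 0.05. Slc2a4 is filled in all contrasts except smooth muscle against pericytes, at 10.04 in smooth muscle against Schwann cells and 4.59 in fibroblasts against Schwann cells, and Hk2, Pfkm and Pfkl carry the longest bars.

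Slc2a4 (chr11:69942539-69948188, minus strand, GRCm38) had its highest levels in the mural classes. It stood at 317, 374 and 170 CPM in smooth muscle of double-reporter mice 1, 2 and 3 and at 269 and 314 CPM in pericytes of mice 1 and 2. Fibroblasts held 11.04, 6.53 and 3.60 CPM, and Schwann cells held 5, 1 and 0 counts in all. The mural sums lay apart from all others, and the smooth muscle and pericyte values overlapped. The log2 change was 5.44 (SE 0.49, adjusted p = 0.0014, higher in 3 of 3 mice) in smooth muscle against fibroblasts and 5.05 (SE 0.51, adjusted p = 0.00198, higher in 2 of 2 mice) in pericytes against fibroblasts. Over the pooled counts the level in smooth muscle was 1010 times that in Schwann cells, with a 95% interval of 465 to 2760 that covers counting error only, since the Schwann sums held 6 counts together. Between smooth muscle and pericytes the log2 change was 0.39 (SE 0.48, adjusted p = 0.79).

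In endothelium of C57BL/6 mouse 1 Slc2a4 gave 1.19 CPM in vascular cells and a single count in endocardial cells. The fibroblast signal sat in few cells: 1 cell gave 50.4%, 70.1% and 44.6% of the Slc2a4 counts of fibroblasts in mice 1, 2 and 3, against 5.29%, 9.76% and 54.8% in smooth muscle. In smooth muscle of mouse 3, therefore, most counts came from 1 of 20 cells. Cardiomyocytes also use Slc2a4. When cells with more than 500 CPM of cardiomyocyte markers were left out, the log2 change between smooth muscle and fibroblasts was 5.72 (adjusted p = 0.00217). Without mouse 2 the change was 5.27 and its adjusted p rose to 0.0868, in a fit that then called no gene at all in this contrast. The pericyte call against fibroblasts had an adjusted p of 0.0689 without mouse 1 and 0.156 without mouse 2, each leaving 1 pericyte sum, and the call of fibroblasts against Schwann cells (log2 change 4.59, SE 0.60, adjusted p = 0.00261) one of 0.112 without mouse 1.

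Slc2a1 (chr4:119108711-119137983, plus strand, GRCm38) had higher means in mural cells too. It stood at 111, 164 and 136 CPM in smooth muscle, 131.9 and 205 CPM in pericytes, 22.5, 14.4 and 36.5 CPM in fibroblasts, and 15.8, 1.29 and 54.0 CPM in Schwann cells. The smooth muscle and fibroblast values did not overlap. In Schwann cells of mouse 1 a single cell gave 97.4% of the counts. The log2 change between smooth muscle and fibroblasts, 2.75 (SE 0.86), and between pericytes and fibroblasts, 3.31 (SE 0.95), did not pass over all genes with edgeR (adjusted p = 0.171 and 0.13), whereas DESeq2 gave adjusted p-values of 0.016 and 0.00505. Vascular endothelium held 35.8 CPM and endocardial cells 53.9 CPM.

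Between the carriers, counts were set per kilobase of exon to allow for gene length. Slc2a1 made up 25.7%, 30.3% and 44.3% of the pair in smooth muscle of mice 1, 2 and 3 (33.4% ± 9.67, SD, n = 3) and 32.7% and 39.3% in pericytes (36.0% ± 4.63, n = 2). In fibroblasts it made up 66.9%, 68.7% and 91.0% (75.5% ± 13.4, n = 3). Slc2a4 was thus the larger part in every smooth muscle and pericyte sum of at least 10 cells and the smaller part in every fibroblast sum. In the 9 pericytes of mouse 3 Slc2a1 was the larger part, at 314 CPM beside 262 CPM of Slc2a4 in genes of nearly equal length. Schwann cells gave 97.8% and 66.5% Slc2a1 in mice 1 and 2 and no Slc2a4 count in mouse 3, but the value of mouse 2 rests on 2 counts against 1. Vascular endothelium gave 96.8% and endocardial cells 99.9%. With 3 mice in pairs no exact test can reach 0.05, so these shares are given without one.

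**Figure D2:**
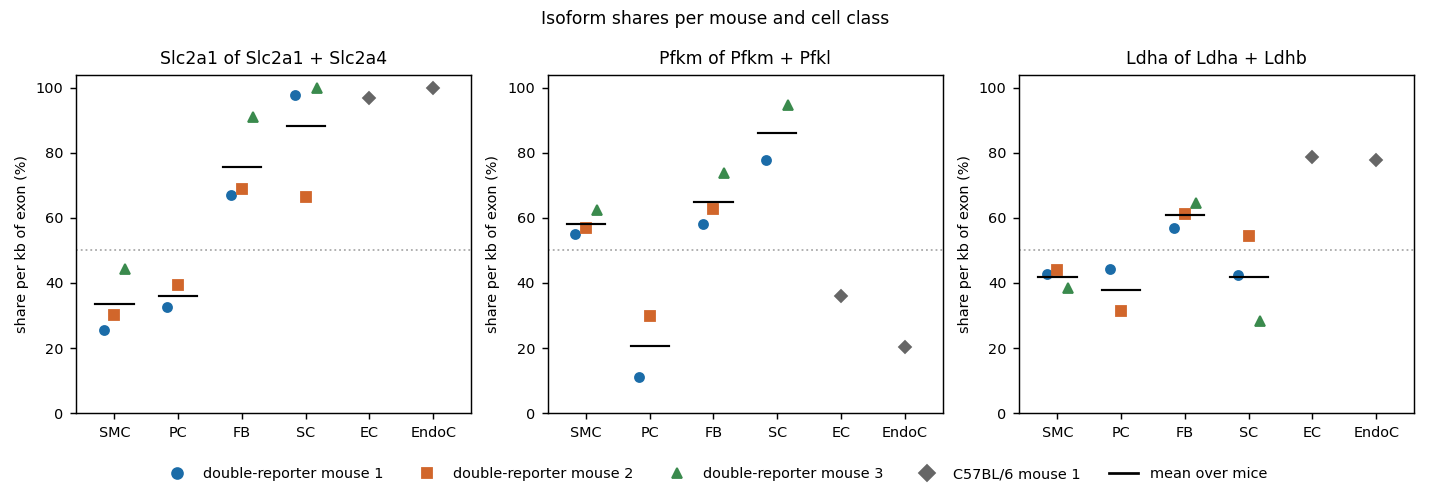
Share of the first gene of each isoform pair (y axis, percent of counts per kilobase of exon) by class, with SMC for smooth muscle, PC for pericytes, FB for fibroblasts, SC for Schwann cells, EC for vascular endothelium and EndoC for endocardial cells. Each point is the sum of 1 mouse and lines are means over mice; mural cells lie below 50% for Slc2a1 with 25.7% to 44.3%, fibroblasts lie above it with 66.9% to 91.0%, and pericytes are the only double-reporter class below 50% for Pfkm.

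The carriers were also counted cell by cell, after thinning each cell to 50000 counts so that depth was equal. In smooth muscle of mice 1, 2 and 3, Slc2a4 without Slc2a1 was found in 40.0%, 36.0% and 30.0% of cells, Slc2a1 without Slc2a4 in 13.9%, 12% and 25.0%, and both in 14.8%, 26.7% and 5.0%. In fibroblasts Slc2a4 alone was found in 7.32%, 4.39% and 1.99% of cells, and neither carrier in 79.3%, 83.3% and 83.3%. Thinning can only lower detection, so these percentages hold for the depth used. Without thinning, neither carrier was found in 59.8%, 57% and 64.9% of fibroblasts and in 19.1%, 14.7% and 40.0% of smooth muscle cells. Thinned smooth muscle cells gave 31.3%, 25.3% and 40.0%. In Schwann cells, Slc2a4 was found in 1 of 63 thinned cells.

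**Figure D3:**
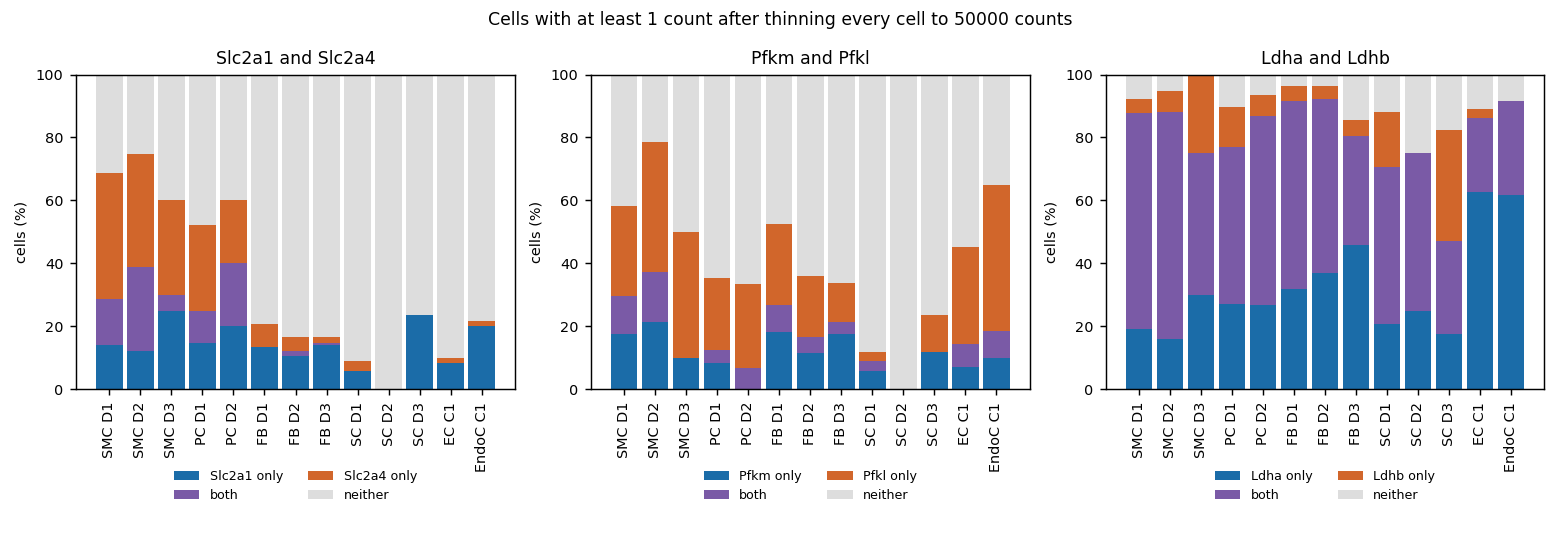
Percent of cells (y axis) with at least 1 count of only the first gene, both, only the second or neither, after thinning to 50000 counts, for each class and mouse (D1 to D3, double-reporter mice; C1, C57BL/6 mouse 1; class letters as SMC, smooth muscle; PC, pericyte; FB, fibroblast; SC, Schwann; EC, vascular endothelium; EndoC, endocardial). Neither carrier is seen in 79.3% to 83.3% of fibroblasts, and Ldha without Ldhb is most common in endothelium with 62.6% and 61.7%.

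The hexokinases differed in how widely they were found. Hk1, the hexokinase of most tissues that binds mitochondria, was present in all classes, at 133, 139 and 172 CPM in smooth muscle, 135 and 209 CPM in pericytes, 104.2, 109 and 67.8 CPM in fibroblasts, and 144, 236 and 31.4 CPM in Schwann cells. Smooth muscle and pericytes lay above fibroblasts without overlap, the other pairs of classes overlapped, and Hk1 passed in 0 of the 6 contrasts with edgeR, with 0 unadjusted p-values under 0.05 and 0 calls by DESeq2. Hk2, the insulin-responsive hexokinase of muscle and fat, was low throughout: 23.3, 9.57 and 3.54 CPM in smooth muscle, 2.11, 4.36 and 8.83 CPM in fibroblasts, and 0.704 and 1.49 CPM in pericytes. Schwann cells held 1 count of Hk2 in all, and endocardial cells none. Hk2 passed between smooth muscle and Schwann cells (adjusted p = 0.0327). The pooled ratio was 345, with a counting interval of 61.8 to 13600, and the call was lost without any 1 of the 3 mice (adjusted p between 0.101 and 0.296). In smooth muscle of mouse 2, 1 cell gave 72.7% of its counts. Macrophages of mouse 3, which are outside the tests, held 37.5 CPM in 30 cells, above every other sum.

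Gpi1 (chr7:34201330-34230336, minus strand, GRCm38), the single-gene isomerase that follows hexokinase, had its highest levels in smooth muscle. It stood at 638, 649 and 732 CPM in smooth muscle, 458 and 544 CPM in pericytes, 214, 264 and 282 CPM in fibroblasts, and 188, 173 and 260 CPM in Schwann cells. Smooth muscle lay above pericytes and pericytes above fibroblasts in these sums, whereas fibroblasts and Schwann cells overlapped. The 9 pericytes of mouse 3 held 172 CPM, below every fibroblast sum. With sums of at least 5 cells, which bring them in, neither the call of smooth muscle against fibroblasts (adjusted p = 0.115) nor that of pericytes against Schwann cells (adjusted p = 0.29) was kept. The log2 change was 1.46 (SE 0.23, adjusted p = 0.0127) in smooth muscle against fibroblasts, 1.77 (SE 0.23, adjusted p = 0.00195) in smooth muscle against Schwann cells and 1.39 (SE 0.26, adjusted p = 0.0166) in pericytes against Schwann cells. For pericytes against fibroblasts it was 1.08 (SE 0.26, adjusted p = 0.0743). Endothelium lay between, at 376 CPM in vascular and 338 CPM in endocardial cells. The call against fibroblasts was lost without each mouse in turn (adjusted p between 0.0983 and 0.217, log2 changes of 1.37 to 1.53), and those against Schwann cells without mouse 1 or 2 (0.0631 and 0.0571 in smooth muscle, 0.144 and 0.295 in pericytes). Of the exon bases of Gpi1, 741 are shared with Gm26762 on the other strand, whose reads cannot be told apart without a known strand setting. Overlaps of the same kind cover 157 exon bases of Hk1 and 105 of Slc2a1. Pfkm shares 359 with Senp1 on the other strand and Gm26513 on its own, and Pkm 767 with Gm49759 on its own strand.

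**Figure D4:**
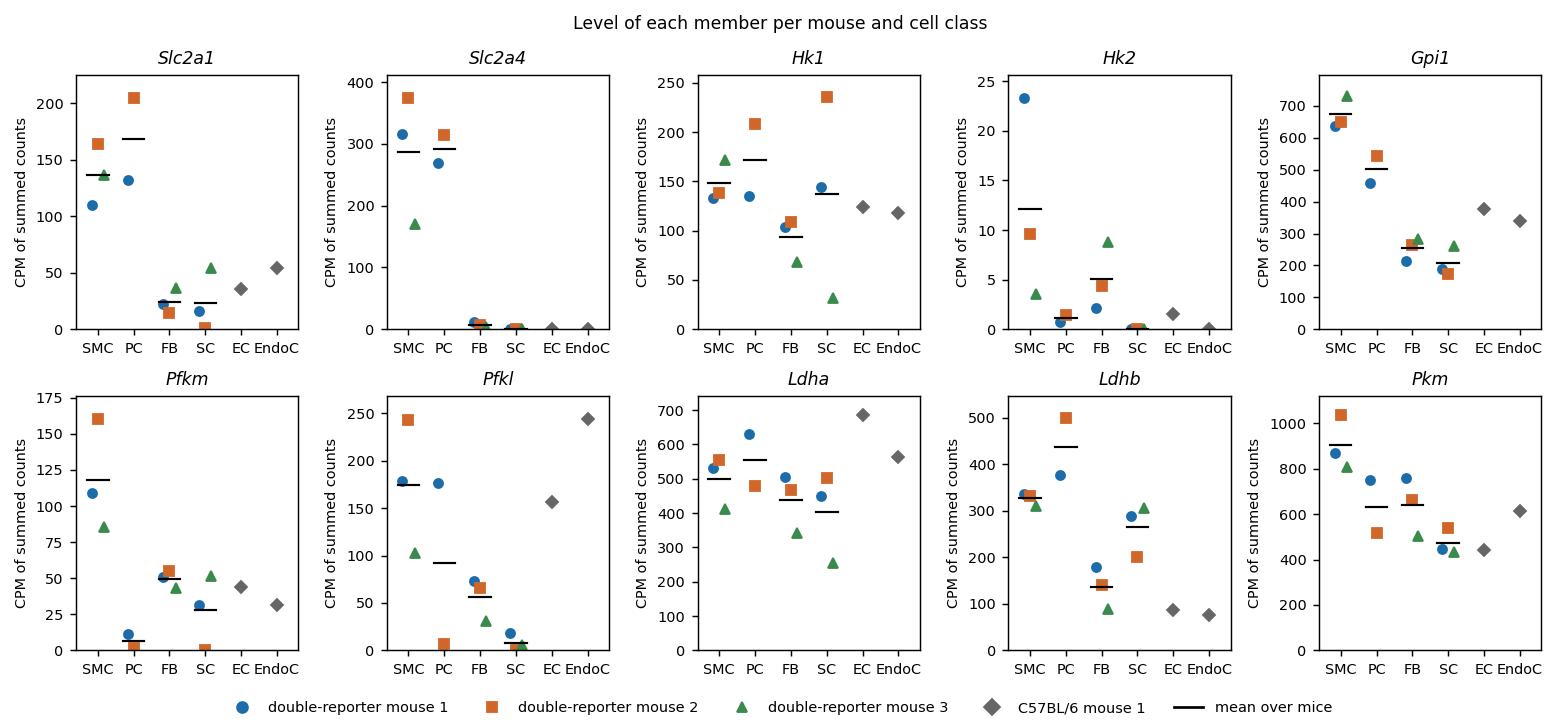
CPM of summed counts (y axes, linear from 0) of each of the 10 genes by class, with 1 point per mouse and lines at the mean over mice; SMC is smooth muscle, PC pericytes, FB fibroblasts, SC Schwann cells, EC vascular endothelium and EndoC endocardial cells. Slc2a4 is at 170 to 374 CPM in the mural sums and under 12 CPM elsewhere, whereas Ldha overlaps between all classes of the double-reporter mice.

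The phosphofructokinase subunits stood in different proportions in smooth muscle and pericytes. Pfkm (chr15:98092589-98132451, plus strand, GRCm38) stood at 109, 160 and 85.3 CPM in smooth muscle, 11.1 and 1.49 CPM in pericytes, 50.9, 55.2 and 43.2 CPM in fibroblasts, and 31.7, 0 and 51.8 CPM in Schwann cells. In these sums smooth muscle lay above all other classes and pericytes below fibroblasts, without overlap. The 9 pericytes of mouse 3, too few for the fit, went the other way with 67.6 CPM, above every fibroblast sum, and 1 of them gave 98.9% of that. With this sum included, the log2 change between pericytes and fibroblasts was -1.86 (adjusted p = 0.591), beside -3.19 (adjusted p = 0.354) without it. The log2 change between smooth muscle and pericytes was 4.55 (SE 1.71), with an adjusted p of 0.285 by edgeR and 0.0193 by DESeq2. With the pericytes of mouse 3 it was 3.18 (adjusted p = 0.376), and without cells of high cardiomyocyte signal it was 5.23 (adjusted p = 0.241). The pericyte values rest on 158 and 3 counts, and in smooth muscle of mouse 3 a single cell gave 87.5% of the Pfkm counts.

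Pfkl (chr10:77986947-78010083, minus strand, GRCm38) stood at 179, 243 and 103 CPM in smooth muscle, 177 and 6.94 CPM in pericytes, 73.1, 65.7 and 30.7 CPM in fibroblasts, and 18.2, 0 and 5.92 CPM in Schwann cells. The 2 pericyte sums thus disagreed, and the 9 pericytes of mouse 3 held 163 CPM, nearer to mouse 1. The value of mouse 2 rests on 14 counts. The Schwann sums lay below those of smooth muscle and fibroblasts. The log2 change between smooth muscle and Schwann cells was 5.06 (SE 1.31, adjusted p = 0.0483), and this call held in 8 of 15 alternatives, with adjusted p-values from 9.7e-05 to 0.167. It was lost without mouse 1 (0.149) and without mouse 3 (0.167). In Schwann cells of mouse 1, 1 cell gave 95.5% of the Pfkl counts. Vascular endothelium held 156 CPM and endocardial cells 244 CPM, near the highest smooth muscle sum.

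As a share of the pair per kilobase, Pfkm made up 55.0%, 56.8% and 62.4% in smooth muscle (58.1% ± 3.86, SD, n = 3) and 58.2%, 62.7% and 73.8% in fibroblasts (64.9% ± 8.03, n = 3), and these ranges overlapped. In pericytes it made up 11.2% and 30.0% (20.6% ± 13.3, n = 2), below every smooth muscle and fibroblast sum, and 28.8% as a mean with the 9 cells of mouse 3. The share of 30.0% rests on 3 counts of Pfkm and 14 of Pfkl. Schwann cells gave 77.7% and 94.6% in mice 1 and 3 and no count of either gene in mouse 2. Vascular endothelium gave 36.0% and endocardial cells 20.3%. On plain counts, without the length of the genes, Pfkm made up 41.0% in smooth muscle and 48.4% in fibroblasts, so which subunit leads depends on the scale. A further subunit gene, Pfkp, the platelet form, stood at 22.1 ± 1.95 CPM per kilobase in smooth muscle, beside 35.4 ± 11.4 for Pfkm and 26.2 ± 10.6 for Pfkl (n = 3 each), and at 8.26, 1.89 and 13.8 CPM per kilobase for Pfkp, Pfkm and Pfkl in pericytes.

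Of the lactate dehydrogenase genes, Ldhb was the one whose level was low in fibroblasts and endothelium. Ldhb (chr6:142490249-142507957, minus strand, GRCm38) stood at 337, 332 and 311 CPM in smooth muscle, 376 and 501 CPM in pericytes, 180, 141 and 89.0 CPM in fibroblasts, and 289, 201 and 307 CPM in Schwann cells. The fibroblast sums lay below all sums of the other 3 classes, as they did below the 227 CPM in the 9 pericytes of mouse 3. Against fibroblasts the log2 change was 1.33 (SE 0.33, adjusted p = 0.084) in smooth muscle and 1.64 (SE 0.37, adjusted p = 0.0597) in pericytes, so neither passed with edgeR, and DESeq2 gave adjusted p-values of 0.0147 and 0.00232. Without the mouse as a block, the pericyte contrast passed with edgeR (adjusted p = 0.0326). Vascular endothelium held 87.7 CPM and endocardial cells 75.7 CPM.

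Ldha (chr7:46841475-46855627, plus strand, GRCm38) overlapped between classes. It stood at 532, 554 and 411 CPM in smooth muscle, 630 and 480 CPM in pericytes, 504, 469 and 342 CPM in fibroblasts, and 449, 502 and 255 CPM in Schwann cells, with overlap between all pairs of classes. None of its 6 contrasts passed with edgeR (adjusted p between 0.342 and 0.927), and it had 0 unadjusted p-values under 0.05 and 0 calls by DESeq2. Among sums of at least 10 cells, mouse 3 was lowest in each class with a value. Its 9 pericytes went the other way with 786 CPM, above the pericytes of mice 1 and 2. Vascular endothelium of the C57BL/6 mouse held 685 CPM and endocardial cells 564 CPM, the latter between the pericyte values of mice 1 and 2. The annotation names 2 pseudogenes after Ldha, and reads shared with them could be split between the copies.

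Per kilobase, Ldha made up 42.9%, 44.1% and 38.5% of the pair in smooth muscle (41.8% ± 2.96, SD, n = 3) and 44.3% and 31.3% in pericytes (37.8% ± 9.20, n = 2). In fibroblasts it made up 57%, 61.3% and 64.6% (61.0% ± 3.805, n = 3), above every smooth muscle and pericyte sum of at least 10 cells. The 9 pericytes of mouse 3 went the other way, with Ldha at 237 CPM per kilobase beside 145 for Ldhb. With this sum included, the mean share in pericytes was 45.9%. Schwann cells spread from 28.3% to 54.3%. Vascular endothelium gave 78.8% and endocardial cells 77.9%. On plain counts Ldha was the larger part in each class (60.2% in smooth muscle, 76.7% in fibroblasts), since the Ldhb exons are shorter. In thinned cells, Ldha without Ldhb was found in 19.1%, 16% and 30.0% of smooth muscle cells, 31.7%, 36.8% and 45.8% of fibroblasts and 62.6% of vascular endothelial cells.

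The upstream sequences of both lactate dehydrogenase genes and of Hk2 are shown because HIF1 and MYC family factors are known to act on Ldha and Hk2 through sites with the cores ACGTG or GCGTG. Each is the 250 bases before a RefSeq start (GRCm38.p6), 5′ to 3′ on the gene's strand, with matches to ACGTG or GCGTG on either strand in capitals.
Ldha, chr7:46845554-46845803, plus strand: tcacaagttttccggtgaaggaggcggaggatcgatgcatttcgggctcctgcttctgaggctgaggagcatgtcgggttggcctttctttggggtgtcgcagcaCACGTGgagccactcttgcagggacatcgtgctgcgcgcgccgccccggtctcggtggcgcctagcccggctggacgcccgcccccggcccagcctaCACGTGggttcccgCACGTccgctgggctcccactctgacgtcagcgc
Ldhb, chr6:142507958-142508207, minus strand: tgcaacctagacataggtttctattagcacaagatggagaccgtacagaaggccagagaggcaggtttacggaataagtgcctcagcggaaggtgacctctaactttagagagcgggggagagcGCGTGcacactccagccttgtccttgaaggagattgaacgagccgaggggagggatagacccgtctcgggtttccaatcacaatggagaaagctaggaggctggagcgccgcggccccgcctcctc
Hk2, chr6:82774455-82774704, minus strand: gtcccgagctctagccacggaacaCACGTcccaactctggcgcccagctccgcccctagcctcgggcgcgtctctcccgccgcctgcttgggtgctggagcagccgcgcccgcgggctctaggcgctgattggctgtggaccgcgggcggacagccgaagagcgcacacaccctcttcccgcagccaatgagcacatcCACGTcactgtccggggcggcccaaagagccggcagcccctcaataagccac
The Ldha window shown, the first of 2 in the table, held 5 matches to ACGTG, counting both strands of each palindromic CACGTG, the Hk2 window held 2 and the Ldhb window none, beside 1 match to GCGTG in Ldhb. The second Ldha window (chr7:46846832-46847081) held no match to ACGTG and 1 to GCGTG, as the Ldhb window did. Of 32851 such windows in the table, 16.6% held ACGTG and 28.2% held GCGTG. RefSeq windows were matched for 9 of the 10 genes, all except Slc2a4, and none of these windows held a CArG box or a MEF2 site, which 1.47% and 0.508% of all windows did. These are matches of letters in short windows and carry no measurement of binding.

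Pkm (chr9:59656368-59679375, plus strand, GRCm38), whose alternative exons give the PKM1 and PKM2 enzymes that gene counts cannot separate, was abundant in all classes. It stood at 869, 1038 and 806 CPM in smooth muscle, 749 and 516.9 CPM in pericytes, 758, 661 and 504 CPM in fibroblasts, and 446, 541 and 431 CPM in Schwann cells. Smooth muscle lay above all sums of at least 10 cells of the other 3 classes. The 9 pericytes of mouse 3, too few for the fit, held 889 CPM, above smooth muscle of mice 1 and 3. The log2 change was 0.99 (SE 0.22, adjusted p = 0.0274) in smooth muscle against Schwann cells and 0.67 (SE 0.26, adjusted p = 0.305) against pericytes. The call against Schwann cells held in 8 of 15 alternatives (adjusted p between 0.0102 and 0.183) and was lost without each mouse in turn (0.166, 0.183 and 0.115).

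The order of the 10 genes per kilobase differed between classes, and it depends on this scale. In CPM, without gene length, the smooth muscle means of Pkm (904.5), Gpi1 (673) and Ldha (499) lay above that of Ldhb (327). The same 3 genes lay above Ldhb in pericytes, at 633, 501 and 555 beside 438 CPM. The values that follow are per kilobase. In smooth muscle Ldhb had the highest mean with 208 ± 8.62 CPM per kilobase (SD, n = 3), followed by Pkm (181 ± 23.99), Ldha (151 ± 23.3), Gpi1 (104.3 ± 7.98) and Slc2a4 (82.5 ± 30.2). The ranges of Ldhb and Pkm over mice overlapped, as did those of Pkm and Ldha and of Gpi1 and Slc2a4, whereas Ldhb lay above Ldha in all 3 mice. In pericytes Ldhb had the highest mean as well, with 279 ± 56.1 CPM per kilobase (n = 2). In the 9 pericytes of mouse 3, however, Ldha (237) and Pkm (178) lay above Ldhb (145). In Schwann cells Ldhb (169 ± 36.2, n = 3) and Ldha (122 ± 39.3) overlapped. In fibroblasts Ldha (132.5 ± 25.6) and Pkm (128 ± 25.6) led without a difference beyond their spread, and Slc2a4 stood above Hk2 alone with 2.03 ± 1.08. Endothelium of 1 mouse had Ldha first with 198 CPM per kilobase and Ldhb at 54.0, behind Pkm and Gpi1. Hk2 was the lowest in every class.

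A set of 59 unassigned mural cells in double-reporter mice 1 and 2, 48 and 11 of them, carried at least 3 markers of both smooth muscle and pericytes. Their Slc2a4 (176 and 413 CPM) and Pfkl (177 and 325 CPM) lay within or above the range of the smooth muscle and pericyte sums. By contrast, Ldhb was at 113 and 65.3 CPM, below every smooth muscle and pericyte sum of at least 10 cells. The same held for Hk1 (71.6 and 2.09 CPM) and Gpi1 (358 and 360 CPM). The 9 pericytes of mouse 3, however, held less Gpi1, at 172 CPM. Pfkm was at 19.3 and 1.25 CPM, below every smooth muscle sum. Ldha made up 70.5% and 82.2% of the lactate dehydrogenase pair and Pfkm 17.9% and 0.766% of the phosphofructokinase pair. Ldhb, Hk1 and Gpi1 in these cells were therefore not between the values of smooth muscle and pericytes in sums of at least 10 cells. Cells with both marker sets were too few for a sum in C57BL/6 mouse 1 (8 cells, Ldhb at 217 CPM) and double-reporter mouse 3 (4 cells, 3.98 CPM). The set of 59 cells was looked at after the values of the other classes were known, and its differences were not tested.

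Among 19 further glycolytic enzymes, 14 were tested. For this list and those that follow, the shares of all genes passing in each contrast are those given above. Aldoa, the muscle aldolase, was higher in mural cells in all 4 contrasts with fibroblasts and Schwann cells: it averaged 1584 ± 149 CPM in smooth muscle (SD, n = 3), 1945 ± 294 in pericytes (n = 2), 891 ± 48.4 in fibroblasts and 667 ± 90.1 in Schwann cells, with adjusted p-values from 0.00158 to 0.0284. Tpi1, the triosephosphate isomerase, was higher in smooth muscle (log2 change 1.12, adjusted p = 0.0324) and in pericytes (1.36, adjusted p = 0.0328) than in Schwann cells, and Gapdh was higher in smooth muscle than in Schwann cells (1.61, adjusted p = 0.00787). The median log2 change of the 14 was 0.97 in smooth muscle against fibroblasts and 0.84 against Schwann cells, beside -0.16 and 0.44 over all genes.

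Of 8 further genes of glucose and lactate carriage 1 passed, Bsg, in smooth muscle and in pericytes against Schwann cells, where 7.58% and 4.82% of all genes passed. Bsg, the chaperone of the lactate carriers, was lower in smooth muscle (495 ± 201 CPM) and pericytes (370 ± 41.2) than in Schwann cells (1091 ± 87.3), with log2 changes of -1.15 and -1.70 (adjusted p = 0.0429 and 0.0241). Among 14 regulators of flux, Txnip, an inhibitor of glucose uptake, was lower in smooth muscle than in Schwann cells (723 ± 203.5 against 1674 ± 81.0 CPM, adjusted p = 0.0215), Pdk2, a kinase that inhibits pyruvate dehydrogenase, was lower in pericytes than in Schwann cells (log2 change -2.73, adjusted p = 0.0166), and Pdp2, a phosphatase that activates it, was higher in smooth muscle (26.9 ± 20.8 CPM against 0.123, adjusted p = 0.0484). Among 10 transcriptional regulators, Mef2c, a muscle factor, was higher in both mural classes than in fibroblasts (log2 changes of 2.86 and 2.47, adjusted p = 0.0055 and 0.0142) and than in Schwann cells (2.34 and 1.94). Epas1 (HIF2A) was higher in both than in Schwann cells, at 878 ± 379 CPM in smooth muscle and 735 ± 102 in pericytes against 31.3 ± 21.6.

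Across the 12 sums of mouse and class, which share mice and plates, the genes with levels most like Slc2a4 among 8446 genes compared were Carmn, a non-coding RNA of smooth muscle (Pearson r = 0.973 on log2(CPM + 1)), Ano1, a calcium-activated chloride channel (0.968), and Cap2, an actin regulator (0.965). For Ldhb they were Pacsin3 (0.953), Odf3l1 (0.947) and Cspg4 (0.929), the gene for which the red reporter is named. For Pfkm they included Wfs1 (0.967) and Ttll1 (0.958), and for Pfkl they were Galt (0.937), Arhgap17 (0.927) and Btbd10 (0.926). Slc2a1 was most like Ate1 (0.941), Ech1 (0.939) and Ehbp1l1 (0.938), and Ldha like Arpc2 (0.905), Pgrmc1 (0.894) and Cdc42bpa (0.865). Among the 10 genes themselves, Gpi1 followed Slc2a1 (0.87) and Slc2a4 (0.87) most closely, and Ldha and Ldhb did not follow each other (-0.01). These coefficients describe the 12 sums and were not tested.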

How the data were processed

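The authors deposited raw counts, whole numbers of reads for each gene in each cell. The submitters' processing notes name the GRCm38 build and bcl2fastq, Bowtie, Bowtie2, featureCounts and Subread; their roles, the strand setting and any removal of duplicates are not given in the sources used here. Exonic lengths and positions came from GENCODE M21, with the length taken over all annotated exons of a gene merged. Counts were summed per mouse and class (at least 10 cells) and tested with edgeR 4.0.16 after TMM scaling and its filterByExpr step, by quasi-likelihood F tests with p-values adjusted after Benjamini and Hochberg over all 17326 genes, with the mouse as a block because the classes come from the same animals; deviations from class means correlated within mice by 0.017 to 0.241. The tests were checked on simulated counts, in which most of the smaller changes and many of the large ones were missed, so a gene that did not pass may still differ. Doublets were not called; a lead of 3 markers was an alternative. The classes are rebuilt from expression and may differ from the study's own. The 10 genes, lists and tests were chosen with earlier results of these data known. All 10 genes are named in every comparison, of each list the called genes (at most 4 per contrast), and the 3 most alike genes per isoform, of which 1 is not reported here. The mouse is the replicate; reads amplified by PCR are not independent, and intervals (exact, 95%) cover counting error only. Alternatives included DESeq2 1.42.0, other scaling, filters, classes and single mice left out.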

Additional observations from a re-analysis of the deposited data

How the results depend on the processing

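No member's call changed direction in any alternative. Leaving out single mice gave 0 to 1 members called in smooth muscle against fibroblasts, 1 to 2 in smooth muscle against Schwann cells, 0 to 1 in pericytes against fibroblasts, 1 to 2 in pericytes against Schwann cells and 0 to 1 in fibroblasts against Schwann cells; without mouse 1 or 2 pericytes had 1 sum, assumed to vary like the others. Without mouse 2, smooth muscle against fibroblasts called 0 of all genes. DESeq2 called 4 members in smooth muscle against fibroblasts, 1 against pericytes, 4 in pericytes against fibroblasts and 4 in fibroblasts against Schwann cells. A fit of the 2 classes alone called 4 in smooth muscle against fibroblasts, 2 in smooth muscle against Schwann cells, 1 in pericytes against Schwann cells and 0 in fibroblasts against Schwann cells. Without the replicate block, 2 members were called in pericytes against fibroblasts and 2 in fibroblasts against Schwann cells; the block changed no other count by more than 1.5 times. Classes from Leiden clusters and sums of at least 5 cells each gave 1 call in smooth muscle against fibroblasts. In smooth muscle against Schwann cells, a lead of 3 markers, sums of at least 5 cells and cells of at least 100000 counts gave 3 calls each. A lead of 3 markers gave 1 in pericytes against Schwann cells, and cells of at least 100000 counts gave 0 in pericytes against fibroblasts. Apart from smooth muscle against fibroblasts without mouse 2, these counts stand without the share of all genes called in the same setting. They are therefore not read as results about the members. The causes of these changes were not tested. RLE size factors moved the median log2 change of all genes from -0.53 to -0.42 in pericytes against fibroblasts and from 0.34 to 0.23 in smooth muscle against pericytes, and changed no count of members.

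In the classes of the double-reporter mice, isoform shares moved beyond 1 SD over mice as follows. The Slc2a1 share of pericytes was 31.2% with a lead of 3 markers, 43.9% with Leiden clusters, 42.1% with sums of at least 5 cells, 31.1% without cells of high cardiomyocyte signal and 42.0% as a mean of cell CPM. The Pfkm share of smooth muscle was 43.0% with markers at 50 CPM, 53.4% with Leiden clusters, 65.6% without cells of high cardiomyocyte signal and 41.0% on plain counts; in pericytes it was 2.82% with a lead of 3 markers and in fibroblasts 48.4% on plain counts. The Ldha share of smooth muscle was 45.4% with Leiden clusters, and on plain counts it was 60.2% in smooth muscle, 55.8% in pericytes, 76.7% in fibroblasts and 59.3% in Schwann cells. The lower sums of Schwann cells and pericytes limit the shares of Slc2a1 and Pfkm there. In endothelium of 1 mouse, where shares were set against their counting interval, those outside it ran from 91.7% to 99.8% for Slc2a1, 14.7% to 35.9% for Pfkm and 78.0% to 88.6% for Ldha.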
